A study of Mus musculus with 18 samples.

Results

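Of the 4775 regions bound by MYC in at least 1 tumour library, 552 lay where the ends of protein-coding genes come together. A region was formed by merging overlapping peaks of the 9 MYC libraries. It was taken as shared between genes when its summit, the median summit of its peaks, lay within 1 kb of an end of 2 or more protein-coding genes in the RefSeq gene spans of GRCm38.p6, the assembly behind mm10. Another 2374 regions lay within 1 kb of the end of 1 such gene (called one-end regions), and 1849 lay near none. In the shared set, 540 regions touched 2 genes and 12 touched 3.

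Mammalian genes often lie head to head, with their transcription start sites close together on opposite strands. The DNA between such starts acts as a bidirectional promoter, usually rich in CpG, and is common at genes of housekeeping function, of DNA repair and of mitochondria. MYC, a transcription factor that pairs with MAX, binds the E-box and related letters in open promoters, so one bound site can lie at the start of both genes. Transcripts can also run tail to tail or one behind the other, in which case a shared site lies at the start of at most one of the genes.

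The libraries came from frozen liver tumours of FVB mice in which MYC was a doxycycline-controlled transgene (TRE-MYC) under LAP-tta, a transactivator expressed in liver, so that taking the mice off doxycycline water switched MYC on. WT tumours were LAP-tta-Arid1aflfl;TRE-MYC without Cre, from mice about 55 days old. Het tumours were LAP-tta-Arid1afl/+;Alb-cre;TRE-MYC at about 70 days, and Homo tumours carried the same transgenes and Alb-cre with Arid1a fl/fl, at about 100 days. Arid1a is a gene of the BAF complex, the form of the SWI/SNF chromatin remodeller that carries the ARID1 subunit, and the design asks whether MYC occupancy changes with its dose. All mice carried the MYC transgene and a floxed Arid1a allele. Albumin-Cre acts in hepatocytes and their tumour descendants, so other cells of the tumour keep Arid1a. Cre and age changed along with genotype and cannot be told apart from it. Each genotype had 3 MYC libraries, each with its own peak list and with an input sample. The labels do not tie the libraries of a genotype to separate animals. The p-values then measure only how these samples vary, and that variation may be technical. Peaks measure occupancy summed over a piece of tumour, in which fewer cells with MYC bound and less MYC bound per cell cannot be told apart. The lists do not measure expression, so the tissue was not checked against markers.

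The 9 lists held from 51 (Homo replicate 2) to 4291 peaks (WT replicate 3), and read depth was solved from the fold and p of the peaks, on the assumption that both have the form that MACS2 gives them. The inputs held from 3.37 to 6.27 reads per kb, with each of the 3 WT inputs deeper than each of the 3 Homo inputs, and the MYC libraries from 7.80 to 15.2. The lists of WT replicate 1 (92 peaks) and Homo replicate 2 stood apart, with 78 and 41 of their peaks away from protein-coding gene ends.

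The sequences of 6 shared promoters are shown because the summit of a region that recurred lies inside them and because they hold the letters that MYC is known to bind. Capitals mark CACGTG, the canonical E-box, and CACGCG or its reverse complement CGCGTG, a variant. Each is the RefSeq promoter of one gene of the pair, 300 bases 5′ to 3′ on the strand of that gene, from 250 bases before to 50 after the start given in that table, in GRCm38.p6. That start can differ from the end of the gene span. The first 5 windows belong to regions found in 6 libraries each, and the Paics window to one found in 3. They are, in order, at chr2:144270523-144270822 (minus strand), chr2:3332579-3332878 (minus strand), chr7:122066948-122067247 (plus strand), chr11:84880146-84880445 (minus strand), chr14:31018888-31019187 (plus strand) and chr5:76951052-76951351 (plus strand).
Snx5 promoter: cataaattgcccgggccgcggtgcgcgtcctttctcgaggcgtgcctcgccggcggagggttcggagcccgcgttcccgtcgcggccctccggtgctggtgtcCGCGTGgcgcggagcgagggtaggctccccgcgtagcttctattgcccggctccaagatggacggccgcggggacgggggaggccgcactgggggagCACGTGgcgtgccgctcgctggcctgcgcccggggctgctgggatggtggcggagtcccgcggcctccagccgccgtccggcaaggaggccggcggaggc
Rpp38 promoter: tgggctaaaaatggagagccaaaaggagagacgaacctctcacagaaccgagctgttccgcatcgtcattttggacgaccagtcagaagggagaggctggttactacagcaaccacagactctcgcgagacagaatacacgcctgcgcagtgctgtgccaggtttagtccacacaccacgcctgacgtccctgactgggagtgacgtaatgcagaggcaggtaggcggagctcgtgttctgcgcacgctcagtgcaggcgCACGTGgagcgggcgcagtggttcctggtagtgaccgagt
Ubfd1 promoter: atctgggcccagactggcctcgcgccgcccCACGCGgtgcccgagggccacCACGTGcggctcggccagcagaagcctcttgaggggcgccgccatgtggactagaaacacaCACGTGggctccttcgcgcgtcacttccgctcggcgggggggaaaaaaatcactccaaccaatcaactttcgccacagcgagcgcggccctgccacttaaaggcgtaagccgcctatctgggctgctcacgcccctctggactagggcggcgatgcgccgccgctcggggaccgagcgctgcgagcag
Pigw promoter: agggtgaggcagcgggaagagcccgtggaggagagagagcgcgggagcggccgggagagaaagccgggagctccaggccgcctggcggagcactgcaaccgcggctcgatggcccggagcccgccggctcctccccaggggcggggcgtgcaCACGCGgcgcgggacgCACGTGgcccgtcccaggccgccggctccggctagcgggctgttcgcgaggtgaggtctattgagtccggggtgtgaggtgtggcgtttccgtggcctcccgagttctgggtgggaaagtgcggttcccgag
Pbrm1 promoter: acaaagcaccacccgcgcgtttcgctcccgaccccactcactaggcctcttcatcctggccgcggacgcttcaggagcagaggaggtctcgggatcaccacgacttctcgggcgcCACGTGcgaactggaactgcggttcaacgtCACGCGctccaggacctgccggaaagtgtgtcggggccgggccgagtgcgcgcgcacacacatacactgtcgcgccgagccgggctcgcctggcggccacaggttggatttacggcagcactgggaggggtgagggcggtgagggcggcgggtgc
Paics promoter: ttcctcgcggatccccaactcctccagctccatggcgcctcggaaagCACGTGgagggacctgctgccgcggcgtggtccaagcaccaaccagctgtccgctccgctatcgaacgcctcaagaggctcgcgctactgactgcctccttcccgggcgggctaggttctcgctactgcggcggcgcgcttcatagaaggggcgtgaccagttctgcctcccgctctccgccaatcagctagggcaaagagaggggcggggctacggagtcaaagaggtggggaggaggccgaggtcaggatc

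Counted from 1 at the 5′ end, the summit in the Ubfd1 window lay at position 57.5, and its nearest E-box started at position 52, with its centre 3 bp from the summit. This window also reaches the neighbouring start of Ears2. In the Pbrm1 window, which is shared with Gnl3, the E-box started at position 116 and its centre lay 10 bp from the summit. The E-box of the Paics window started at position 48, 13.5 bp from the summit, in a promoter shared with Ppat. The distance was 26 bp in the Pigw window and 26.5 bp in the Rpp38 window. In the Snx5 window the E-box lay farther off, at 79.5 bp, and the variant CGCGTG was the nearer of the marked motifs, at 17.5 bp.

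Divergent starts made up most of the shared regions whose strands were known. RefSeq promoters gave a strand for both genes of 434 regions, and the other 118 involved a gene without one. Of the 434, 206 (47.5%) lay at divergent starts with a gap between the genes, and 116 (26.7%) at divergent starts whose spans overlapped, which happens because a RefSeq span runs to its outermost transcript. A further 88 (20.3%) lay where the start of one gene met the far end of another, 19 (4.38%) at starts on the same strand, and 5 (1.15%) near 2 far ends. Among all 3129 annotated pairs of ends within 2 kb with known strands, 647 (20.7%) were divergent with a gap, 358 (11.4%) divergent with an overlap, 975 (31.2%) start to far end, and 1106 (35.3%) far end to far end. The far-end pairs were thus the most frequent class in the annotation and the rarest among the shared regions.

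Read the other way, 193 of the 647 divergent pairs with a gap (29.8%) carried a shared region in at least 1 library and 104 (16.1%) in at least 2. For divergent pairs with an overlap the numbers were 110 of 358 (30.7%) and 57 (15.9%). Pairs of a start and a far end had a region in 82 of 975 cases (8.41%), and pairs of far ends in 6 of 1106 (0.542%). These shares describe the annotation and the pooled lists, and each region was counted for the 2 genes nearest its summit only. Pairs were classed by their closest ends and regions by the ends nearest the summit, so the totals of a class can differ. The 19 regions at same-strand starts were separated by a median of 2 bp. Such entries can be read-through or overlapping gene models at 1 promoter, as for Gm21992 and Rbm14, an RNA-binding protein gene, and for Ak6 and Taf9, whose annotated starts coincide at a distance of 0 bp.

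**Figure D1:**
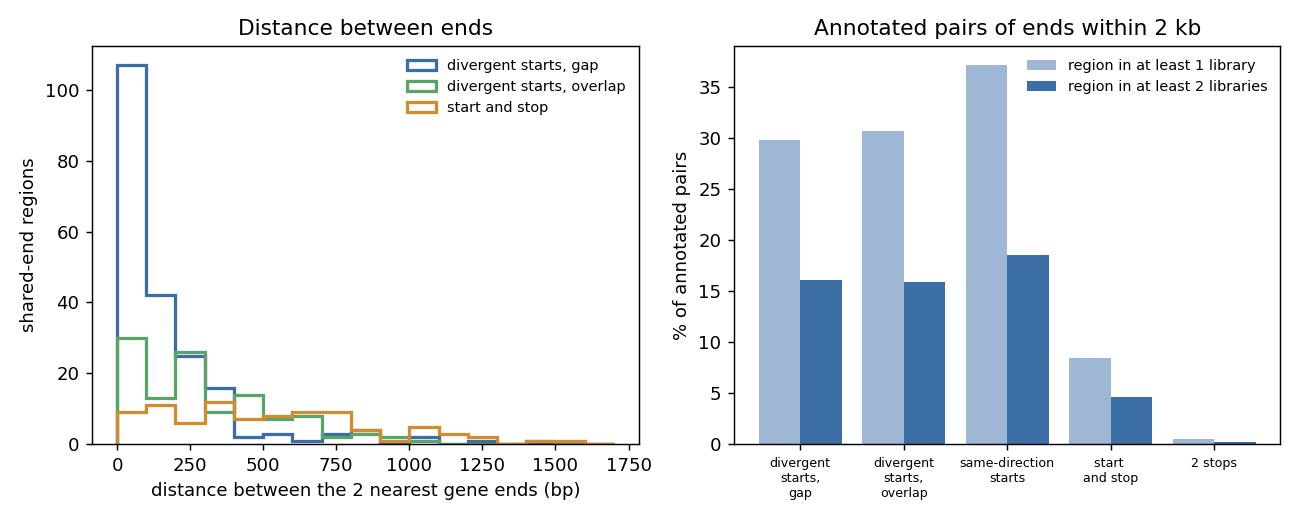
Left, the distance in bp between the 2 gene ends nearest the summit, in bins of 100 bp, for shared regions at divergent starts with a gap, at divergent starts with an overlap, and at a start beside a far end (labelled stop). Right, the percentage of all annotated pairs of ends within 2 kb that carried a shared region in at least 1 or at least 2 libraries; pairs with a start reach 8.41% to 37.2% in at least 1 library and pairs of far ends 0.542%.

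The ends that shared a region were close together. Over the 552 regions the median distance between the nearest ends was 177.5 bp (quartiles 62.75 and 397.25, range 0 to 1619). It was 98.5 bp at divergent starts with a gap, 272 bp at overlapping ones and 491.5 bp where a start met a far end. The summit lay a median of 103 bp from the nearer end and 319.5 bp from the second. It fell between the ends in 43 of the 206 divergent pairs with a gap (20.9%). At most of them the summit thus lay within the span of one of the genes, beside the gap and not in it. Starts, distances and the split into gap and overlap are those of gene spans, here and below. A start in the promoter table can lie inside the span, as for Snx5, so the position of a summit relative to such starts can differ. Regions with ends at most 200 bp apart had a peak in at least 4 libraries in 56 of 296 cases (18.9%), those over 200 and up to 500 bp apart in 23 of 148 (15.5%) and those over 500 and up to 1000 bp apart in 7 of 87 (8.05%). Over 1000 bp apart it was 1 of 21 (4.76%). For a peak in at least 2 libraries there was no steady fall, with 51.7%, 48.6%, 46.0% and 57.1% in the same order. One-end regions had a peak in at least 4 libraries in 20.3% of cases.

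Examples on both sides of the 1 kb limit were taken only from regions with a peak in at least 4 libraries. Those inside included Mocs3 and Dpm1 (second end at 873.5 bp, 4 libraries, median fold 5.19) and Aunip and Paqr7 (823 bp, 4 libraries, 5.46). Just outside were Pus3 and Ddx25 (1004.5 bp, 6 libraries, 7.67), Hnrnpa1 and Cbx5 (1011 bp, 6 libraries, 8.43) and Ap4m1 and Mcm7 (1019 bp, 4 libraries, 6.68).

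Divergent groups of gene starts carried a MYC peak more often than solitary starts in each of the 9 libraries. Each divergent group of starts within 1 kb was counted once, which gave, among genes of known strand, 892 divergent units and 15630 starts with no other start within 1 kb. In WT, a peak lay within 1 kb of 0.112%, 11.5% and 34.2% of the divergent units and of 0.0640%, 4.03% and 11.6% of the solitary starts, in replicate order. In Het the values were 13.0%, 14.2% and 1.79% against 4.69%, 5.16% and 0.761%. In Homo they were 0.673%, 0.224% and 2.02% against 0.282%, 0.0512% and 0.729%. The ratio of the percentages ran from 1.75 (WT replicate 1, where 1 divergent unit had a peak) to 4.38 (Homo replicate 2, where 2 had), with a geometric mean of 2.70 and an SD of 0.35 on the log2 scale (n = 9). The log2 ratio differed from 0 by a two-sided exact sign-flip permutation test over libraries (p = 0.00391, the smallest that 9 libraries can give, higher in 9 of 9). This comparison was chosen after the data were seen. A divergent unit offers a window 1.11 times as long as that of a solitary start (2230 bp against 2001 bp). It also holds more than 1 start, any of which could have the peak, so the ratio is per unit and not per start. Expression was not measured, and the part of gene activity in the ratio was not tested.

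**Figure D2:**
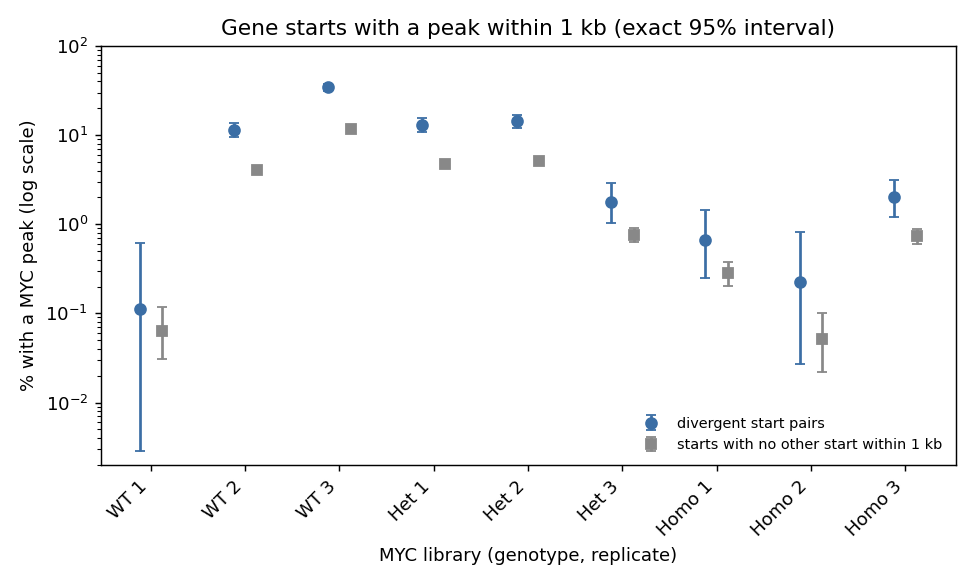
Percentage of divergent start units (circles) and of starts with no other start within 1 kb (squares) that had a MYC peak within 1 kb, for each of the 9 libraries on a log scale, with exact Clopper-Pearson 95% intervals that cover counting error only. The circle is above the square in 9 of 9 libraries, although the intervals overlap where few units had a peak.

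An excess was also found relative to sequence, counting starts and far ends alike. Shared positions made up 7.34% of the sequence within 1 kb of a protein-coding gene end, and 18.9% of the 2926 regions found there. Within single libraries, shared regions took between 13.3% (Het replicate 3) and 30% (Homo replicate 2) of the gene-end peaks. The exact 95% interval lay above 7.34% in 6 of the 9 libraries. The exceptions were WT replicate 1 (4.66% to 50.8%), Homo replicate 1 (6.86% to 25.8%) and Homo replicate 2 (6.67% to 65.2%), with 14, 62 and 10 gene-end peaks. With gene starts only, the share ran from 6% (Homo replicate 1) to 20% (Homo replicate 2). No share of sequence was computed for starts alone, and the part of a preference for starts in this excess was not tested.

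E-boxes were frequent in these promoters and more so where the region recurred. A RefSeq promoter window of a gene in the pair contained the summit for 272 of the 552 regions, and 1 window was taken for each. CACGTG, searched over the whole window (its reverse complement is itself), was present in 71 of 272 windows (26.1%), against 1666 of all 21263 promoters of protein-coding genes (7.84%). It was present in 20.5% of the windows of regions found in 1 library, 24.5% of those found in 2 or 3, and 56.2% of those found in at least 4 (18 of 32). CACGCG or CGCGTG was present in 129 of 272 (47.4%), against 12.1% of all promoters. One-end regions gave like values, 27.1% for CACGTG and 41.9% for the variant over 861 windows, and 45.5% and 52.4% in at least 4 libraries. Base composition was not matched between the sets, and a match is a run of letters, not a shown binding site. In the 71 windows with an E-box, its centre lay a median of 34.5 bp from the summit, and within 50 bp in 44 (62.0%).

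**Figure D3:**
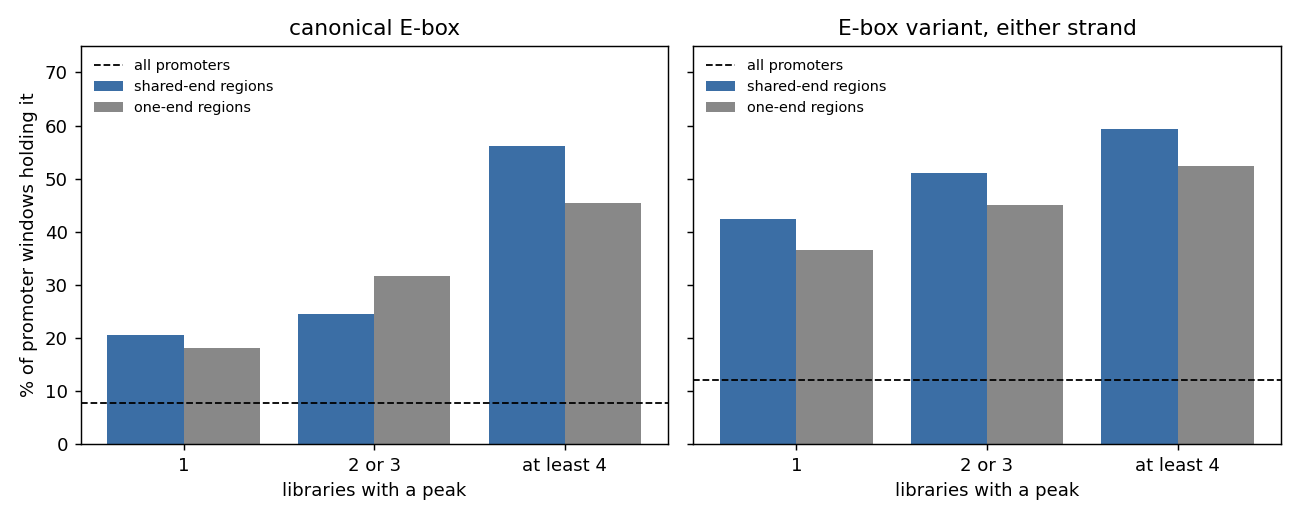
Percentage of 300-base promoter windows containing the region summit that held the canonical E-box (left) or the variant on either strand (right), for shared and one-end regions grouped by the number of libraries with a peak. Dashed lines give all promoters of protein-coding genes (7.84% and 12.1%); each bar lies above its line.

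The regions in the most libraries joined genes of different function. Folds are those the authors gave each peak, relative to the background of its own library, so their order across libraries of unlike depth is a description. A library without a fold had no listed peak there, which does not show that MYC was absent. The pair Fam185a and Ccdc146 (chr5:21424907-21425660) had the authors' fold over background of 7.69, 10.8 and 11.8 in WT replicates 1, 2 and 3, 15.6, 16.2 and 12.98 in Het replicates 1, 2 and 3, and 9.51 and 6.74 in Homo replicates 1 and 3. Its folds in the Het libraries were above those of every other library, and Homo replicate 2 had no peak there. Vars, the valyl-tRNA synthetase gene, and its neighbour D17H6S56E-5 (chr17:35000791-35001610) also had a peak in 8 libraries, with folds of 6.28, 9.43 and 12.3 in WT replicates 1, 2 and 3, 10.8, 12.1 and 7.31 in Het replicates 1, 2 and 3, and 4.77 and 9.002 in Homo replicates 1 and 3. The reads solved for at its summit numbered 70, 101 and 119 in WT replicates 1, 2 and 3, 147, 76 and 61 in Het replicates 1, 2 and 3, and 65 and 93 in Homo replicates 1 and 3, over a local background of between 2 and 5 input reads. The lowest fold was that of Homo replicate 1, and the other Homo fold lay inside the WT and Het ranges. Ifrd2, a ribosome-binding regulator of translation, and the hyaluronidase gene Hyal3 (chr9:107587559-107588298), where the start of Ifrd2 lies 359 bp beyond the far end of Hyal3, had folds of 11.9 and 16.4 in WT replicates 2 and 3, 9.76, 16.8 and 6.37 in Het replicates 1, 2 and 3, and 8.93, 7.48 and 6.26 in Homo replicates 1, 2 and 3. Here the 3 Homo folds lay below both WT folds and overlapped the Het range, and WT replicate 1 had no peak.

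Rpl12, which encodes a protein of the large ribosomal subunit, faces the ubiquitin ligase gene Lrsam1 across 58 bp (chr2:32961701-32962323). Its folds were 11.9 and 11.1 in WT replicates 2 and 3, 10.3, 9.67 and 7.12 in Het replicates 1, 2 and 3, and 4.98 and 5.76 in Homo replicates 1 and 3. The Homo values were the lowest of the 7 and did not overlap with the WT or Het values. B3galt6, a galactosyltransferase of glycosaminoglycan synthesis, and Sdf4, a calcium-binding protein of the Golgi (chr4:155992028-155992979), had 5.31, 10.1 and 14.8 in WT replicates 1, 2 and 3, 9.42, 7.63 and 5.30 in Het replicates 1, 2 and 3, and 4.07 in Homo replicate 3. Arsg, a lysosomal arylsulfatase gene, and Slc16a6, a monocarboxylate transporter gene (chr11:109473176-109473563), reached the highest fold of any shared peak, 25.7 in WT replicate 3, with 14.6 and 25.7 in WT replicates 2 and 3, 9.47, 18.2 and 8.11 in Het replicates 1, 2 and 3, and 11.7 in Homo replicate 3. Here the Homo value was inside the range of the Het libraries.

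The chaperonin genes Hspd1 and Hspe1, which encode the partners HSP60 and HSP10 of mitochondrial protein folding, are a textbook divergent pair. Their region (chr1:55087300-55088744) had folds of 10.5 and 16.8 in WT replicates 2 and 3, 10.9, 11.95 and 10.4 in Het replicates 1, 2 and 3, and 5.98 in Homo replicate 3. The 5 WT and Het values lay above the single Homo value. Its summit was 459 bp from the start of Hspe1 and 554 bp from that of Hspd1, outside both promoter windows, so no sequence is printed. Paics and Ppat, both of purine synthesis, had 9.81 in WT replicate 3 and 5.02 and 5.83 in Het replicates 1 and 2. Of other textbook pairs, Atm with Npat (fold 6.45), Surf1 with Surf2 (5.49) and Gart with Son (3.30) had a peak in WT replicate 3 only. No shared region was found at Trp53 with Wrap53, Col4a1 with Col4a2 or Prkdc with Mcm4.

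Among the pairs whose sequences are printed, Snx5, a sorting nexin, and Mgme1, a nuclease of mitochondrial DNA, had folds of 13.5 and 20.9 in WT replicates 2 and 3, 13.9, 11.4 and 5.11 in Het replicates 1, 2 and 3, and 5.84 in Homo replicate 3. The ends of their gene spans were 2 bp apart, although the start used for the printed Snx5 window lies inside the Snx5 span. Those of Ears2, the mitochondrial glutamyl-tRNA synthetase gene, and Ubfd1 were 1 bp apart, and their region (chr7:122066751-122067448) had 11.6 and 13.8 in WT replicates 2 and 3, 7.83 and 13.98 in Het replicates 1 and 2, and 8.39 and 5.21 in Homo replicates 1 and 2. Acbd7 and Rpp38, a subunit of RNase P and RNase MRP, had 10.6 and 18.5 in WT replicates 2 and 3, 10.5, 18.2 and 6.21 in Het replicates 1, 2 and 3, and 11.5 in Homo replicate 3. Pop1, another subunit of these enzymes, paired with Rida, also had a peak in 6 libraries; this gene was picked out after its values were seen, and its folds were 8.68 and 13.6 in WT replicates 2 and 3, 8.50 and 7.15 in Het replicates 1 and 2, and 7.59 and 5.53 in Homo replicates 1 and 3. Pigw, of GPI anchor synthesis, and Myo19, a mitochondrial myosin, had 8.24 and 13.5 in WT replicates 2 and 3, 15.7, 7.15 and 7.07 in Het replicates 1, 2 and 3, and 10.9 in Homo replicate 2. Srsf7, a splicing factor, and Gemin6, of the SMN complex that assembles spliceosomal RNPs, had 11.4 and 13.8 in WT replicates 2 and 3, 11.8, 4.99 and 8.04 in Het replicates 1, 2 and 3, and 3.94 in Homo replicate 3.

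**Figure D4:**
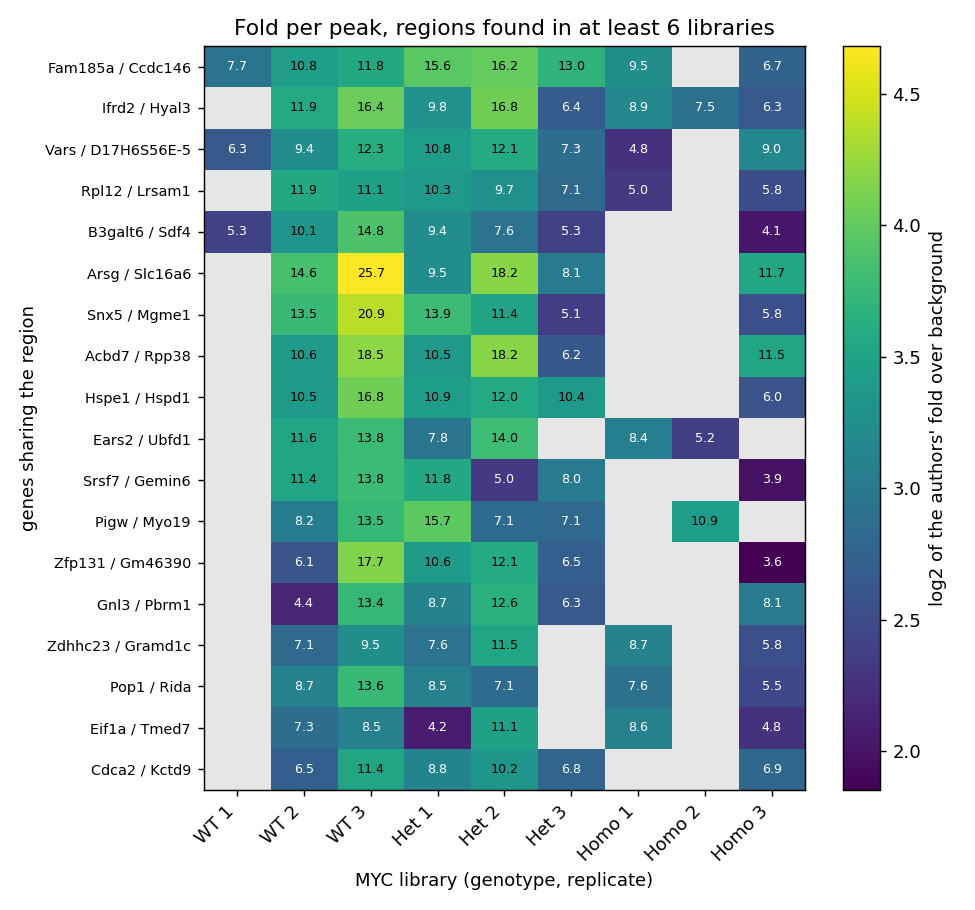
The authors' fold over background for the 18 shared regions with a peak in at least 6 libraries (rows, by the genes that share them) in the 9 MYC libraries (columns), with the fold printed in each cell and its log2 as colour; grey cells had no peak. Columns WT 2, WT 3, Het 1 and Het 2 are filled in all 18 rows, while WT 1 and Homo 2 have 3 each.

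Genes of ribosome production, translation and histones were among the members. Of 21887 protein-coding genes, 1034 (4.72%) lay at a shared region and 548 (2.504%) at one in at least 2 libraries. Another 2221 lay at one-end regions only and 18632 at none. Like all genes, each list except histones had more genes at one-end regions only than at shared ones. For those lists the counts show no trait particular to shared regions. Of the 30 listed ribosome biogenesis genes, 6 lay at a shared region, 20 at one-end regions only and 4 at none. They included Gnl3 (nucleostemin), which shares its region (chr14:31018797-31019233) with Pbrm1, a subunit of the PBAF form of SWI/SNF, at folds of 4.45 and 13.4 in WT replicates 2 and 3, 8.70, 12.6 and 6.26 in Het replicates 1, 2 and 3, and 8.07 in Homo replicate 3. Bop1 with Hsf1, the heat shock factor gene, had 6.07 and 6.68 in WT replicates 2 and 3 and 9.77 and 5.41 in Het replicates 1 and 2, and Rrp9 with Parp3 had 9.01 in WT replicate 3 and 3.69 and 5.37 in Het replicates 1 and 2.

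Of 83 ribosomal protein genes, 14 lay at shared and 47 at one-end regions only. Besides Rpl12 they included Rps25 with Trappc4 (11.5 and 8.12 in WT replicates 2 and 3 and 10.1 and 10.7 in Het replicates 1 and 2) and Rpl36 with Lonp1, a mitochondrial protease. Of 91 genes of translation factors and tRNA synthetases, 16 lay at a shared region, among them Eif1a with Tmed7 (folds of 7.31 and 8.50 in WT replicates 2 and 3, 4.20 and 11.1 in Het replicates 1 and 2, and 8.56 and 4.81 in Homo replicates 1 and 3) and Eef1d with Tigd5 (5.13 and 5.48 in WT replicates 2 and 3 and 5.40 and 9.20 in Het replicates 1 and 2). Eif1a had a peak in every genotype. The mitochondrial ribosome had 13 of 78, led by Mrpl54 with Apba3 at 7.90 and 10.7 in WT replicates 2 and 3 and 8.24 and 5.22 in Het replicates 1 and 2. Mitochondrial chaperones and import had 4 of 16, with Timm9, an inner-membrane import chaperone, in 5 libraries (7.56 and 8.83 in WT replicates 2 and 3, 11.5 and 6.76 in Het replicates 1 and 2, and 3.78 in Homo replicate 3). Nucleotide and polyamine synthesis had 6 of 23, with Cad, the enzyme of the first steps of pyrimidine synthesis, next to Atraid in 4 libraries (8.41 and 12.01 in WT replicates 2 and 3 and 6.68 and 7.39 in Het replicates 1 and 2). Impdh2, the rate-limiting enzyme of guanine nucleotide synthesis, shared its region with Qrich1 (7.27 in WT replicate 3 and 3.92 in Het replicate 1). DNA repair and replication had 3 of 20, and chromatin remodellers 4 of 19. These 4 were all of SWI/SNF complexes, as were most of the genes on that list, so this follows largely from the list. Besides Pbrm1 these were Arid2, the ARID subunit of PBAF, with Gm38469 (6.93 in WT replicate 3 and 5.77 in Het replicate 2), Brd9 with Trip13 (7.77 in WT replicate 3 and 7.90 in Het replicate 2), and Smarcd1 with Asic1 (4.82 in WT replicate 3).

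Of the 9 gene lists, histones had the highest share, 24 of 67 genes in 13 shared regions, against 11 at one-end regions only. The 4 regions in the most libraries each lay at an H2A and an H2B gene, with the summit nearer the H2A end and not in the stretch between the pair. H2ac12 with H2bc12, 178 bp apart, had 6.42 and 10.5 in WT replicates 2 and 3 and 4.03, 5.30 and 6.75 in Het replicates 1, 2 and 3. H2ac8 with H2bc8 had 9.61 and 8.29 in WT replicates 2 and 3 and 9.75 in Het replicate 3, H2ac22 with H2bc22 had 7.78 and 8.63 in WT replicates 2 and 3 and 5.97 in Het replicate 2, and H2ac6 with H2bc4 had 5.68 and 8.11 in WT replicates 2 and 3 and 10.5 in Het replicate 1. None of these 4 had a peak in a Homo library, which 5.80% of the shared regions and 7.20% of all regions had. Histone genes of a cluster are near-identical copies, between which alignment can split or lose reads, and these values are uncertain. The lists were drawn up with earlier results of these data known, so the counts are a description. They were not matched for the spacing of their genes, and the part of spacing in the histone share was not tested.

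By genotype, the number of shared regions with a peak was 3, 159 and 524 in WT, 190, 200 and 22 in Het, and 9, 3 and 29 in Homo, in replicate order. The ranges of WT and Homo overlapped because WT replicate 1 had 3, whereas Homo and Het overlapped between 22 and 29. The geometric means of number plus 1, less 1, were 68.5, 94.9 and 9.63. On the scale of log10(number + 1), Homo minus WT was -0.82 (two-sided exact permutation p = 0.4, adjusted p = 0.533), Homo minus Het -0.96 (exact permutation p = 0.2, adjusted p = 0.533) and Het minus WT 0.14 (exact permutation p = 0.8, adjusted p = 0.8). None passed the test, which with 3 libraries against 3 cannot give a p under 0.1. Over the 3 genotypes, 32.0% of the sum of squares lay between them (exact permutation p = 0.282, adjusted p = 0.533). Leaving out WT replicate 1 raised this to 71.5% (exact permutation p = 0.0679, adjusted p = 0.2). Without that library Homo minus WT was -1.44, without WT replicate 3 -0.38 and without Homo replicate 2 -0.60. Without both WT replicate 1 and Homo replicate 2, Homo minus WT was -1.22 (exact permutation p = 0.333, adjusted p = 0.444) and Het minus WT was -0.48.

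For the share of gene-end peaks that lay in shared regions, no genotype comparison passed. The WT mean was 19.4% ± 1.92, the Het mean 16.1% ± 2.52 and the Homo mean 20.5% ± 8.32 (SD, n = 3 each; exact permutation p between 0.2 and 1 over 4 tests, adjusted p between 0.8 and 1). The Homo mean rests on Homo replicate 2, where 3 of 10 gene-end peaks were shared. Without it, Homo minus WT was -3.63 percentage points, in place of 1.12.

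**Figure D5:**
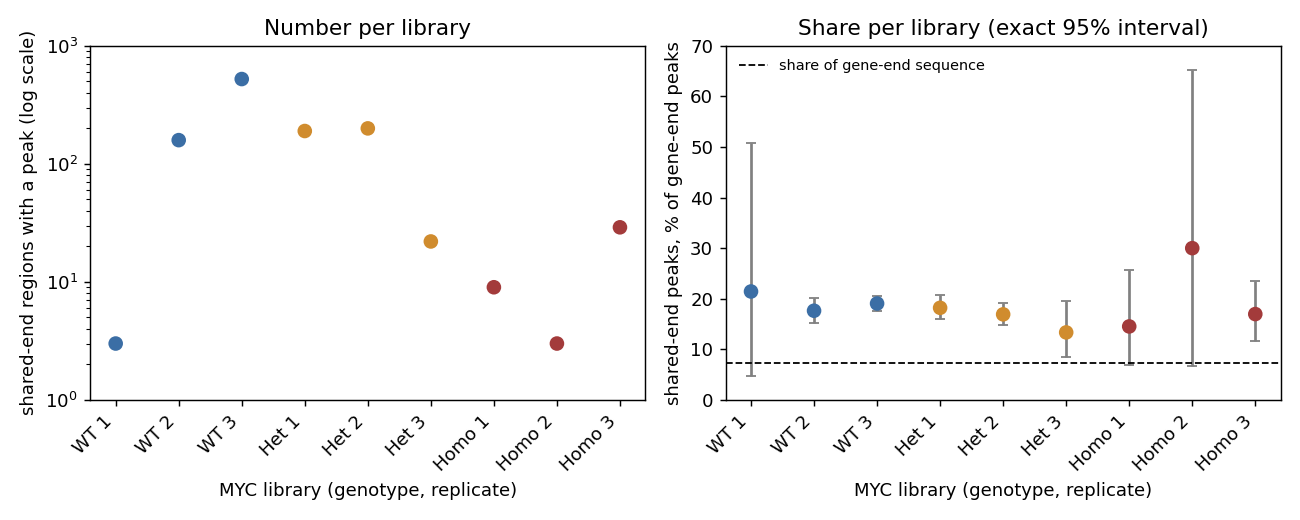
Left, the number of shared regions with a peak in each MYC library, on a log scale, from 3 to 524. Right, the share of gene-end peaks that lay in shared regions with exact Clopper-Pearson 95% intervals (counting error only); the dashed line marks the 7.34% of gene-end sequence that is shared, and all 9 points lie above it.

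Few shared regions had a peak in Homo tumours, whose lists held 112, 51 and 303 peaks, and each of these also had a peak in another genotype. A peak was present in any WT library at 530 of the 552 regions, in any Het library at 274 and in any Homo library at 32 (96.0%, 49.6% and 5.80%). Over all 4775 regions these shares were 93.4%, 51.0% and 7.20%. All 32 also had a WT peak, and 31 a Het peak (96.9%), against 341 (99.1%) and 339 (98.5%) of the 344 regions with a Homo peak in the whole set. Of the 275 regions found in 1 library, 251 were found in WT replicate 3, the longest list. A peak in 2 or more WT libraries and none in Homo was found at 124 shared regions (22.5%), close to the 22.0% of all 4775 regions that met the same rule. They included Nsun2, a tRNA methyltransferase, with the steroid reductase gene Srd5a1, at 6.87 and 17.3 in WT replicates 2 and 3 and 15.4 and 11.2 in Het replicates 1 and 2; Rpl36 with Lonp1, at 9.62 and 15.7 in WT replicates 2 and 3 and 11.7 and 11.7 in Het replicates 1 and 2; and Lyar, a nucleolar protein gene, with Zbtb49, at 10.8 and 10.9 in WT replicates 2 and 3 and 6.97 and 13.8 in Het replicates 1 and 2. Ccdc134 with Mei1 (7.49 and 12.7 in WT replicates 2 and 3 and 11.5 in Het replicate 1) and Nudt6 with Spata5 (6.64 and 15.2 in WT replicates 2 and 3 and 10.9 in Het replicate 2) followed. No shared region had a peak in 2 or more Homo libraries and none in WT, as for all regions (0%). A peak in 2 or more libraries of both was found at 8 shared regions for WT and Homo (1.45%, against 2.03% of all regions) and at 8 for Het and Homo (1.45%, against 2.01%). Dropping either WT replicate 2 or WT replicate 3 left 0 of the 124, and 32 or 29 of the 1052 among all regions. After thinning, the count was 19 (207 of 2202 regions, 9.40%). For this, the reads at each summit were scaled down to the depth of the shallowest input. A −log10 p of 10 was then required in every library.

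A peak in 2 or more Het libraries and none in Homo was found at 88 shared regions (15.9%), against 18.1% of all regions. The 5 that led by number of Het libraries had a peak in 3 of 3. They included Bap1, a deubiquitinase and tumour suppressor gene, whose start lies 8 bp from that of Phf7 (chr14:31251052-31251528). Its folds were 6.71 and 15.1 in WT replicates 2 and 3 and 7.06, 6.15 and 6.64 in Het replicates 1, 2 and 3, and the fold of WT replicate 3 stood above the other 4. Polr2h, a subunit common to the 3 nuclear RNA polymerases, shares its region with the chloride channel gene Clcn2, at 4.77 and 14.04 in WT replicates 2 and 3 and 8.21, 8.03 and 6.85 in Het replicates 1, 2 and 3. Trim28, a corepressor, with Gm31649 had 6.73 and 6.50 in WT replicates 2 and 3 and 5.40, 5.60 and 6.82 in Het replicates 1, 2 and 3. Fam227b with Dtwd1 had 11.5 in WT replicate 3 and 6.18, 3.50 and 5.10 in Het replicates 1, 2 and 3, and H2ac12 with H2bc12 was also among them. Dropping either Het replicate 1 or Het replicate 2 left a count of 6 in place of 88 (131 or 135 in place of 864 among all regions). The thinning with the p limit gave 39 (445 of 2202 regions, 20.2%). No shared region had a peak in 2 or more Homo libraries and none in Het (0% of all regions).

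WT and Het tumours had 85 shared regions (15.4%) with a peak in at least 2 libraries of both, against 18.1% of all regions. In at least 2 WT and no Het library there were 22 (3.99%, against 4.13% of all regions). By the ranking of number of libraries and fold they were led by H2ac13 with H2bc13 (8.93 and 9.64 in WT replicates 2 and 3), Rars2, the mitochondrial arginyl-tRNA synthetase gene, with Orc3 of the replication origin complex (6.27 and 10.1 in WT replicates 2 and 3), Hsf4 with Fbxl8 (5.81 and 10.4 in WT replicates 2 and 3), Cib1 with Gdpgp1 (7.33 and 8.65 in WT replicates 2 and 3), and Nop16 with Higd2a (6.60 and 8.81 in WT replicates 2 and 3). In the opposite direction there were 2 (0.362%, against 0.607%), Mrpl50 with Zfp189 (7.18 and 7.64 in Het replicates 1 and 2) and Slc20a2, a phosphate transporter gene, with Smim19 (6.20 and 6.23 in Het replicates 1 and 2). A second region at these genes had a peak in Het replicate 2 alone. Without WT replicate 2 or WT replicate 3 the 22 became 0 (2 or 0 in place of 197 among all regions), without Het replicate 1 they became 49 (341) and without Het replicate 2 39 (361). The 2 became 33 when WT replicate 3 was dropped (297 in place of 29 among all regions) and 0 when either Het replicate 1 or Het replicate 2 was (0). The thinned counts were 3 and 8 (21 and 68 of 2202 regions).

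Recurrence across libraries was compared with that of one-end regions as a description, with no test. A peak in at least 2 libraries was found at 277 of 552 (50.2%) and 1225 of 2374 (51.6%), in at least 4 at 87 (15.8%) and 483 (20.3%), and in at least 6 at 18 (3.26%) and 79 (3.33%). The 18 shared regions in at least 6 libraries all had a peak in WT replicates 2 and 3 and Het replicates 1 and 2. The fold stood above every Homo fold of the region in 12 of the 18 for WT replicate 2, 17 for WT replicate 3, 13 for Het replicate 1 and 16 for Het replicate 2, in 6 of 14 for Het replicate 3 and in 1 of 3 for WT replicate 1. Several of the 18 had a fold in only 1 Homo library. The same count was not made for one-end regions or for all regions, so it shows no trait particular to shared regions.

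No difference in rank by fold was detected between peaks in shared regions and one-end peaks of the same list. In the 7 libraries with at least 5 peaks of both kinds, the median percentile of fold within the list was 40.8 and 44.3 in WT replicates 2 and 3, 39.1, 40.7 and 49.9 in Het, and 78.6 and 27.4 in Homo replicates 1 and 3. For one-end peaks it was 46.7 and 48.8, 44.9, 49.4 and 39.4, and 44.6 and 43.2. The mean difference was 0.524 percentile points (two-sided exact sign-flip permutation p = 0.953, adjusted p = 0.953, higher in 2 of 7 libraries). It was -5.00 without Homo replicate 1, whose median rests on 9 shared peaks. The median width of shared peaks minus that of one-end peaks averaged -4.50 bp (exact sign-flip permutation p = 0.5, adjusted p = 0.953, wider in 1 of 7 libraries); without Homo replicate 1 it was -9.50 bp (exact sign-flip permutation p = 0.0312, adjusted p = 0.0625, wider in 0 of 6).

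Of the regions at 3 genes, those in the most libraries were Utp4, a factor of small-subunit rRNA processing, with Chtf8 and Derpc (6.73 and 8.63 in WT replicates 2 and 3 and 6.41 and 13.8 in Het replicates 1 and 2), and Bysl, also of small-subunit assembly, with Med20 and Gm20517 (5.46 and 5.07 in WT replicates 2 and 3 and 6.23 and 7.39 in Het replicates 1 and 2). Ak6 with Taf9 and Rad17, Ampd2 with Gnat2 and Gm12500, and Senp3, a SUMO protease of the nucleolus, with Tnfsfm13 and Tnfsf13 had 3 libraries each. None of these 5 regions had a peak in a Homo library or in WT replicate 1. Such peaks were rare throughout: 5.80% of the 552 shared regions and 7.20% of all regions had a Homo peak, and 3 shared regions had a peak in WT replicate 1.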

How the data were processed

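MYC was measured by ChIP-seq in 9 liver tumour libraries (3 per Arid1a genotype), each with an input sample not analysed separately here. Per the submitters' processing notes, the tools were MACS2 2.0.10.20131216, Bowtie2 2.2.3, HOMER and Picard, with the mm10 build; as to the calling threshold, it was not given in the sources used here. The lists the authors deposited give each peak's position, its summit, an integer score, the fold enrichment at the summit as a ratio to the local background, and −log10 values of q and p.

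Peaks overlapping by at least 1 bp were merged, and regions were placed at the ends of 21887 protein-coding genes of RefSeq GRCm38.p6, of which 17492 had a strand in its promoter table. For each peak, fold and −log10 p were solved together for whole summit reads and local background, assuming the MACS2 form of both values (exactly 1 solution for 99.8% of 10376 peaks). The lowest background over the shortest peak of a list gave the input depth. It rests on 2 peaks in Homo replicate 1. Folds are the authors' own. Tests used their rank within a list, and their order across libraries is given as a description. Counting intervals are exact Clopper-Pearson 95% intervals. Tests were two-sided and exact over libraries, with Benjamini-Hochberg adjustment over 4 (number, share) or 2 (fold rank, width) tests. Scripts were tested on simulated data. Software was Python 3.11.15, numpy 2.4.6, scipy 1.17.1 and pandas 2.3.3.

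The members, gene lists and tests were chosen with earlier results of these data known. Regions were named by a rule: the 12 in the most libraries, up to 5 per genotype contrast, up to 4 per gene list, up to 5 at 3 genes, those with the shortest and longest distance between ends, textbook pairs, and those next to the 1 kb limit. Some regions that the rule names are not reported here. Alternatives were other windows, stricter peaks, equal list length, another summit, more overlap, starts only, libraries left out and a replicate block. Thinning to the shallowest input was chosen after seeing the data.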

Additional observations from a re-analysis of the deposited data

How the results depend on the processing

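The excess at divergent units over solitary starts kept its direction in 20 alternatives, with an exact permutation p between 0.00391 and 0.0312. Ratios ran from 2.27 (equal lists, higher in 6 of 7 libraries) to 3.24 (250 bp window), and from 2.55 to 2.86 with a library left out. No genotype difference in the number or share of shared regions had an adjusted p under 0.05 in any alternative, and a pair of genotypes with 3 libraries each cannot give a p under 0.1. The smallest p was for the share over 3 genotypes with equal lists (79.4% of the sum of squares, in place of 16.1%, exact permutation p = 0.025, adjusted p = 0.1).

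The difference in log10 number of Het from WT turned to -0.480 without WT replicate 1 and Homo replicate 2 together, and ranged from -0.480 to 0.575 with single libraries left out. When lists were trimmed to equal length (51 peaks), Homo minus WT became 0.441 and Homo minus Het 0.0223. With single libraries left out these ranged from -1.44 to -0.379 and from -1.27 to -0.743. The share differences turned as follows. Het minus WT became 1.73 (250 bp window) and 18.0 (equal lists). Homo minus WT became 19.8 (equal lists), -0.0751 (500 bp), -0.203 (−log10 q from 5 up), -1.01 (fold from 5 up), -0.0552 (−log10 p from 10 up) and -2.60 (both libraries out), and ranged from -3.63 to 4.36. Homo minus Het became -0.409 (both out) and ranged from -0.409 to 7.57.

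The fold-rank difference became -3.81 (250 bp), -0.0266 (500 bp), -0.735 (fold), -0.384 (−log10 p), -5.60 (gene starts only) and -0.449 (thinned), and ranged from -5.00 to 3.25. The width difference became 0.143 (−log10 p) and 2.5 (thinned).

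Region counts moved too, with the count among all regions in brackets where it changed. All regions numbered 4775 in the main setting, 4245 (fold), 3761 (−log10 p), 184 (equal lists) and 2202 (thinned). With a library left out they numbered from 2780 to 4775. As shares of all regions, the thinned calls were 0.954% for WT not Het (4.13% in the main setting) and 9.40% for WT not Homo (22.0%). They were 20.2% for Het not Homo (18.1%) and 3.09% for Het not WT (0.607%). WT not Het, 22 [197], became 11 (250 bp), 0 [2] (equal lists), 14 (starts only) and 3 [21] (thinned), and ranged from 0 to 49 [0 to 361]. WT not Homo, 124 [1052], became 51 (250 bp), 0 [8] (equal lists) and 19 [207] (thinned), and ranged from 0 to 143 [29 to 1242]. Het not Homo, 88 [864], became 33 (250 bp), 56 [642] (−log10 p), 0 [6] (equal lists) and 39 [445] (thinned), and ranged from 6 to 108 [131 to 1049]. Het not WT, 2 [29], became 0 (250 bp), 0 (500 bp), 7 [57] (fold), 1 [24] (−log10 p), 1 [6] (equal lists), 1 (starts only) and 8 [68] (thinned), and ranged from 0 to 33 [0 to 297]. With equal lists, Homo not WT became 2 [8] and Homo not Het 1 [6], where absence means a lower rank. Fewer regions qualify under a narrower window or a stricter limit by construction; for the other changes the cause was not tested.

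With the replicate block the differences in log10 number were unchanged at 0.140, -0.816 and -0.956 (exact permutation p of at least 0.5, smallest possible 0.25), and no call changed. Same-numbered libraries did not deviate together (correlations from -0.183 to 0.0268 over 2353 regions), so the numbers were not taken as pairs. Input depth can limit which weak peaks are listed, and its part in the length of these lists was not tested.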
